A study of Homo sapiens with 2 samples.

Results

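The metallothionein genes MT1E, MT1F, MT1G, MT1H, MT1M, MT1X and MT2A were examined in 2 single-cell RNA libraries of human embryonic stem cells treated with BMP4. These 7 members, of 33538 genes in the tables, were taken by symbol in both libraries. The family was chosen with measured values of these same libraries in view, so the values below are descriptions and no test was made. One library, labelled WT, came from unmodified H1 cells, an established human pluripotent line derived from an embryo. The other, labelled GATA3 KO, came from KO-GATA3-06, 1 clone of an H1 line with a doxycycline-inducible Cas9 cassette at the AAVS1 locus, made by targeting GATA3, which encodes a transcription factor, with CRISPR RNA. Both were grown in mTeSR1 medium and exposed to BMP4, a signal that drives these cells out of pluripotency, at 50 ng/ml for 48 h. The treatment text of WT gives 1 h while its title and recorded duration give 48 h. Clone, cassette and genotype differ together, and with 1 library each they cannot be told apart.

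Metallothioneins are small, cysteine-rich proteins that bind zinc and copper. Their genes are switched on through the zinc-sensing transcription factor MTF1, which binds metal response elements in their promoters, and they also respond to glucocorticoids and oxidative stress. In most cells MT2A and the MT1 genes buffer zinc, and the zinc exporter SLC30A1 is another well-known target of MTF1.

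The 7 genes lie within 1 cluster on chromosome 16 (GRCh38, GENCODE annotation), between 56608584 and 56684196. In order they are MT2A (56608584 to 56609497), MT1E (56625475 to 56627112), MT1M (56632659 to 56633981), MT1F (56657731 to 56660698), MT1G (56666730 to 56668065), MT1H (56669814 to 56671129) and MT1X (56682470 to 56684196). All are protein-coding, with 2 exons annotated in the canonical transcript of MT1E and 3 in those of the others, and all but MT1G lie on the plus strand. Their canonical transcripts are alike, with 80.3% to 90.4% identical bases over the aligned part in the 21 pairs, and MT1G and MT1H are the closest. Of the 50-base words of a member's transcript, between 4.30% in MT1M and 20.4% in MT1H also occurred in another gene of the tables. The split of reads between members is therefore less certain than their sum.

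Promoters of 3 of the 7 members were present in the RefSeq table (GRCh38.p14). They are shown because metal response elements are the sites through which these genes are known to respond to zinc. Each is the 250 bases upstream of the annotated start, on the plus strand, at chr16:56608334-56608583 for MT2A, chr16:56669564-56669813 for MT1H and chr16:56682220-56682469 for MT1X. Capitals mark the letters TGCACNC or TGCGCNC, the core of the metal response element, found on either strand, and no 2 matches overlap.
MT2A: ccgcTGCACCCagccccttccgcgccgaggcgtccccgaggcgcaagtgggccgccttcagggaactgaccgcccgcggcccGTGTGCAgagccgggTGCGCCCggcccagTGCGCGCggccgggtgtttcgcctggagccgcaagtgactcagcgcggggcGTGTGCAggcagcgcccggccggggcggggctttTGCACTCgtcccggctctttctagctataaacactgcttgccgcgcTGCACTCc
MT1H: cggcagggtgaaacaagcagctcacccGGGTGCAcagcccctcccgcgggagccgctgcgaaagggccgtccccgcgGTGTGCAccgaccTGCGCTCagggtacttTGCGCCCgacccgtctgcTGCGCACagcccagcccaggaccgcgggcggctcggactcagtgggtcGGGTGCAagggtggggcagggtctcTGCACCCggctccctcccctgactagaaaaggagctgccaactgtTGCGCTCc
MT1X: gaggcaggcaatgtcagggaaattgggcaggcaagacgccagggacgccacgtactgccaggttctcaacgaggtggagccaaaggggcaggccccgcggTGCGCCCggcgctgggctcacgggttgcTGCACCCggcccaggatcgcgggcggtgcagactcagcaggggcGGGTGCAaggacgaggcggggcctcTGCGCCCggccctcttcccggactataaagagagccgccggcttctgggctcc
The window of MT2A held 7 matches, that of MT1H 8 and that of MT1X 4. Of 35116 promoters cut to the same 250 bases, 24.8% held at least 1 match, 0.37% held at least 4, 0.0313% at least 7 and 0.0171% at least 8. These matches are letters in a window and were not shown to be bound here.

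The tables hold counts of unique molecular identifiers (UMIs), each of which stands for 1 captured transcript. After removal of cells with more than 7500 detected genes or more than 25% mitochondrial counts, 2519 of 3802 cells were kept in WT and 4450 of 6221 in GATA3 KO. The kept cells held 99587274 and 175285931 UMIs, with medians of 44415 and 43131.5 per cell. Levels over the library are UMIs per 1000000 (CPM), and levels per cell come from a random draw of 10000 UMIs from every cell that had as many, which left 2173 and 4038 cells and is called thinning below. Intervals are 95%, cover counting error only, and say nothing of how a second culture would differ. Those of levels and ratios take UMIs as independent and leave out the spread between cells. That spread was wide here, with a variance over mean of the metallothionein sum in thinned cells of 22.2 in WT and 7.08 in GATA3 KO. The transcript of GATA3 itself stood at 12.7 CPM in WT and 10.9 CPM in GATA3 KO, and since a 3′ count does not read the targeted site it does not check the label. Of the barcodes, 8 occurred in both libraries.

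All 7 members were lower in GATA3 KO than in WT. Their summed level was 162 CPM (159 to 164) in WT and 42.7 CPM (41.7 to 43.6) in GATA3 KO, a 3.79-fold difference and a log2 ratio, on the CPM + 1 scale, of -1.90 (-1.94 to -1.86). On that scale 4 of the 7, MT1G, MT1H, MT1X and MT2A, were lower by 1 or more, against 2.27% of the 13523 genes that reached 1 CPM in at least 1 library. Another 2.06% of those genes were higher by as much, and the median of all of them was 0.07. With 0.1 CPM added in place of 1, MT1E and MT1M were also lower by 1 or more, making 6 of the 7, and over all deposited cells MT1E was, making 5. In bulk sums such as these, fewer cells with the transcript and less transcript per cell cannot be told apart, and the values per cell are given below.

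**Figure D1:**
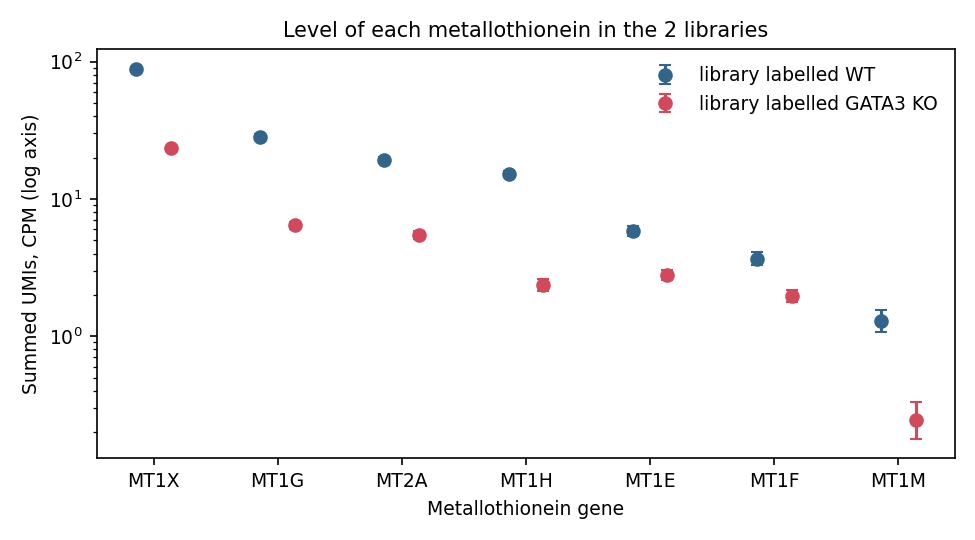
Level of each metallothionein gene in the libraries labelled WT and GATA3 KO, as summed UMIs of the kept cells in CPM on a log axis, with exact Poisson 95% intervals that cover counting error only. Every gene sits lower in GATA3 KO, from MT1X at 88.2 and 23.4 CPM to MT1M at 1.3 and 0.245 CPM.

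MT1X gave most of the transcripts. It stood at 88.2 CPM in WT and 23.4 CPM in GATA3 KO (log2 -1.87, -1.92 to -1.82), which was 54.5% and 54.9% of the summed UMIs of the family. MT1G was second, at 28.4 and 6.42 CPM (log2 -1.99, -2.08 to -1.90). MT2A, in many tissues the main metallothionein, stood at 19.3 and 5.45 CPM (log2 -1.65, -1.75 to -1.55). MT1H had the widest gap on this scale, at 15.2 CPM in WT and 2.37 CPM in GATA3 KO (log2 -2.26, -2.38 to -2.14). Only 36 of the 13523 genes had a lower ratio than MT1H. A 3′ UMI count does not depend on transcript length, so these levels compare captured molecules between genes without a length correction.

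The 3 members with the lowest levels in WT differed less on the CPM + 1 scale. MT1E was at 5.86 and 2.80 CPM (log2 -0.85, -0.99 to -0.72) and MT1F at 3.68 and 1.97 CPM (log2 -0.66, -0.81 to -0.50). MT1M had only 129 UMIs in WT and 43 in GATA3 KO, or 1.3 and 0.245 CPM, a 5.28-fold difference that the added 1 CPM turns into a log2 ratio of -0.88. The mix of members shifted for the smaller ones. MT1G made up 17.5% of the family in WT and 15.1% in GATA3 KO, and MT2A 11.9% and 12.8%. MT1H went from 9.36% to 5.55%, MT1E from 3.62% to 6.55% and MT1F from 2.27% to 4.61%.

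Other metallothioneins were nearly silent. MT1A, MT1B, MT1HL1, MT3, the form best known from brain, and MT4 all stayed under 1 CPM in both libraries and together reached 0.191 and 0.057 CPM. MT4 had no UMI in either. The genes that flank the cluster on chromosome 16 did not share the difference, since none of the 7 flanking genes of at least 1 CPM was past a log2 ratio of 1 and their median was 0.02. They ranged from -0.52 for HERPUD1, a gene of the unfolded protein response, to 0.48 for OGFOD1.

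The transcripts were spread very unevenly over cells. In WT, 996 of 2173 thinned cells (45.8%, 43.7 to 48.0) held at least 1 metallothionein UMI, and in GATA3 KO 761 of 4038 (18.8%, 17.7 to 20.1). Without thinning these shares were 72.8% and 39.0%. The 10% of cells with the highest sums held 67.9% of all metallothionein UMIs in WT and 79.0% in GATA3 KO, where a Poisson count of the same mean would place 25.7% and 42.2%. The highest 1% alone, 22 and 40 cells, held 30.4% and 31.9%. After thinning, the median cell held 0 in both.

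**Figure D2:**
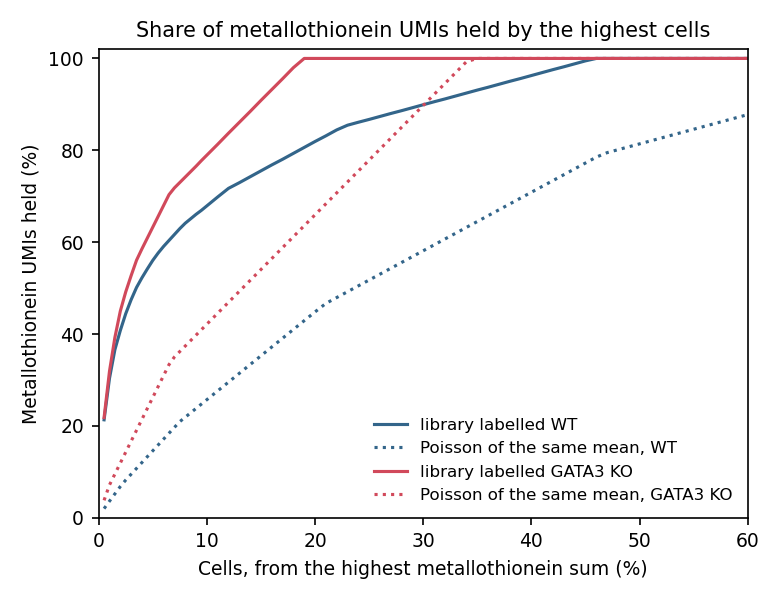
Cumulative share of metallothionein UMIs (vertical axis, %) held by cells taken from the highest sum downward (horizontal axis, % of thinned cells), for both libraries, with dotted lines for a Poisson count of the same mean. At 10% of cells the solid lines stand at 67.9% in WT and 79.0% in GATA3 KO, above the dotted lines at 25.7% and 42.2%.

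The WT cell with most of them carried 692 metallothionein UMIs among 54842, or 1.26% of its transcripts, made of 260 MT1G, 192 MT1H and 173 MT1X molecules and smaller numbers of the other 4. The highest cell of GATA3 KO by count held 193 UMIs of 50056. MT1G was the most uneven member, with a variance over mean of 13.0 in WT and 4.37 in GATA3 KO, and only 12 of 17286 and 38 of 17036 genes were more uneven. MT1H followed in WT with 10.6, whereas MT2A reached 2.45 and 2.07. MT1M had values of 1.06 and 0.997. With at most 2 UMIs in a thinned WT cell and 1 in a GATA3 KO cell, these are held near 1 and cannot show how even it was.

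Members were high in the same cells. Each member was read against the summed count of the other 6 in the cell, so that it did not choose its own class. MT1G rose from 0.0175 UMIs per WT cell where the others were at 0 to 7.91 where they summed to 10 or more, and from 0.00758 to 4.63 in GATA3 KO. Of the 575 MT1G UMIs in WT, 372 lay in 47 such cells. MT1H went from 0.0118 to 4.26 UMIs per cell in WT and from 0.00365 to 1.48 in GATA3 KO. The part that reads placed on a similar member may have in these values was not tested.

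MT1X and MT2A were also found where the other members were not. In the 1708 WT cells with no UMI of another member MT1X still averaged 0.482 UMIs, and 31.1% of those cells held at least 1. In the 28 WT cells with 10 or more of the others it averaged 13.2. MT2A went from 0.102 to 2.05 in WT and from 0.0253 to 1.84 in GATA3 KO. MT1M went from 0.0151 to 0.102 in WT, on 6 UMIs in the upper class, while 18 of its 28 UMIs lay in the cells with no other member. Its 11 UMIs in GATA3 KO were too few to place.

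Rank correlations over cells were low. The median Spearman rho of the 21 pairs was 0.21 over 2173 WT cells and 0.18 over 4038 GATA3 KO cells. The highest was 0.44 in WT, for MT1E with MT1G, and 0.35 in GATA3 KO, for MT1G with MT1H. Only the pair MT1G and MT1X had both means at 0.2 UMIs or more in WT, with a rho of 0.32, and no pair did in GATA3 KO. When cells with a sum of 10 or more were left out, the median fell to 0.07 and 0.11. The cells were left out by the sum of these same members, which lowers such correlations in advance, so no conclusion is drawn from the fall. All cells of a library share its free RNA, whose part in these values was not tested. The thinned sum, in which depth is set equal, had a rho of 0.03 and 0.06 with the mitochondrial share of the cell.

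Cells with at least 10 metallothionein UMIs of 10000 are called high cells here. The limit was set after the distribution had been seen and marks a range, not a type, and 20 WT and 12 GATA3 KO cells lay within 1 UMI of it. High cells numbered 59 of 2173 in WT (2.72%, 2.07 to 3.49) and 25 of 4038 in GATA3 KO (0.619%, 0.401 to 0.913). They held 45.9% and 24.9% of the metallothionein UMIs. Among the remaining cells the mean sum was still 0.873 in WT and 0.317 in GATA3 KO, so the lower counts in GATA3 KO were not limited to the high cells. The part of free RNA in these 2 means was not tested. High and other cells had similar depth, with medians of 50356 and 46951 UMIs in WT and 47797 and 44826 in GATA3 KO. Median mitochondrial shares were 11.1% and 11.4% in WT and 11.3% and 11.1% in GATA3 KO.

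The high cells were mostly SOX2 cells. SOX2 marks pluripotent cells, MIXL1 the primitive streak, and TFAP2A amnion and trophectoderm. Of the 59 high cells of WT, 50 (84.7%, 73.0 to 92.8) had at least 1 SOX2 UMI after thinning, against 53.5% (51.4 to 55.7) of the other cells. In GATA3 KO all 25 did (lower limit 86.3%), against 86.4% of the others, a share just above that limit and so within the interval. MIXL1 was found in 1 of 59 high cells of WT (1.69%, 0.0429 to 9.09) and in 32.7% of the others. In GATA3 KO 0 of 25 high cells had MIXL1, which allows a share of up to 12% by the limit of 3 cells and 13.7% by the Clopper-Pearson interval, and 2.14% of the others had it, so a difference was not detectable at this number of cells. TFAP2A was found in 4 of 59 (6.78%, 1.88 to 16.5) and 1 of 25 (4%, 0.101 to 20.4) high cells. The shares of the other cells, 11.5% and 17.8%, lie within these intervals, so a difference was not detectable.

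The mean over all cells was also higher with SOX2. In WT the mean sum was 2.27 UMIs in the 1182 SOX2-positive cells and 0.731 in the 991 SOX2-negative cells, a 3.11-fold difference (log2 1.64, 1.52 to 1.76). In GATA3 KO it was 0.473 in 3494 and 0.0809 in 544 cells (log2 2.55, 2.12 to 3.01). MT1G had the widest gap among the members with SOX2 in WT, at 0.449 and 0.0444 UMIs (10.1-fold), and MT2A the narrowest, at 0.223 and 0.143 (1.56-fold). MT1F, MT1G, MT1H and MT1M had no UMI in the 544 SOX2-negative cells of GATA3 KO, which allows up to 0.551% of cells with a UMI at this depth. For MT1M, at 0.00315 UMIs per SOX2-positive cell, so few UMIs would be counted in 544 cells that no difference was detectable. Without the 1% of cells with the highest sums, the log2 ratio of the sum for SOX2 was 1.04 in WT and 1.99 in GATA3 KO. With levels and marker calls from unthinned cells it was 0.76 and 1.05.

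Cells with MIXL1 were low in metallothioneins. Their mean sum in WT was 0.631 UMIs in 693 positive cells against 2.01 in 1480 negative cells (log2 -1.67, -1.82 to -1.53), and without the highest 1% of cells the ratio was -1.08. In GATA3 KO there were only 86 MIXL1-positive cells, with 0.140 against 0.426 (log2 -1.61, -2.57 to -0.80). That ratio was -0.59 when cells were thinned to 20000 UMIs and -0.82 for cells with MIXL1 alone against all others. MT1G fell most with MIXL1 in WT, from 0.376 to 0.0274 UMIs per cell, and MT1X less, from 1.06 to 0.439.

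Cells with TFAP2A were lower too, and the members were less uniform. In WT the sum was 1.04 in 248 positive and 1.64 in 1925 negative cells (log2 -0.65, -0.84 to -0.47), and this ratio ranged from -1.15 to -0.21 over the settings tried. MT1G was lower in TFAP2A-positive WT cells, at 0.133 and 0.282, but MT2A stood at 0.206 and 0.184, with an interval of the log2 ratio from -0.30 to 0.58 that includes no difference. In GATA3 KO the sum was 0.138 in 717 positive and 0.481 in 3321 negative cells (log2 -1.80, -2.11 to -1.51), and the ratio ranged from -2.73 to -1.09 over the settings tried.

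**Figure D3:**
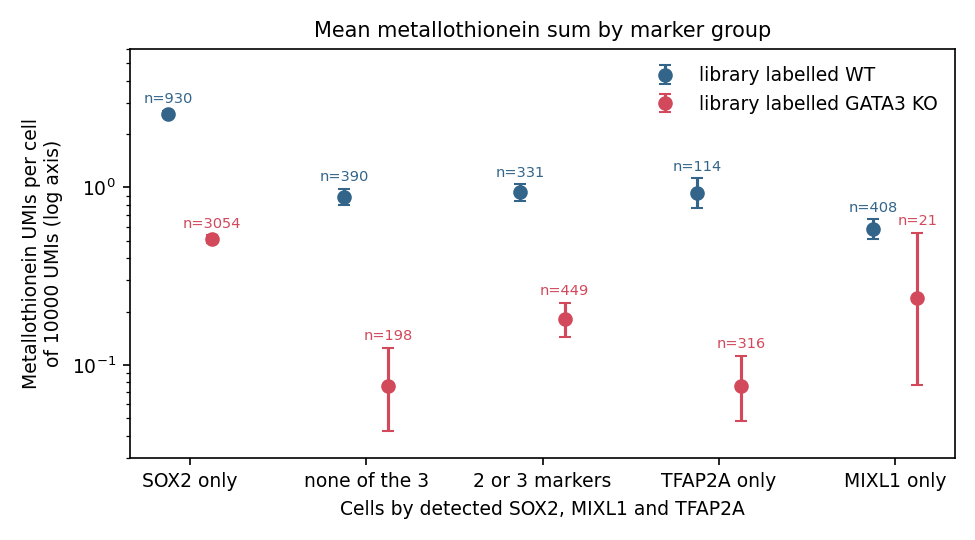
Mean metallothionein UMIs per cell of 10000 UMIs (log axis) by which of SOX2, MIXL1 and TFAP2A the cell held, in both libraries, with exact Poisson 95% intervals that cover counting error only and the number of cells. SOX2-only cells are the highest group in each library, at 2.59 and 0.514, and each group of GATA3 KO has a lower mean than the same group of WT.

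The lower level in GATA3 KO was found within each marker group. GATA3 KO held more SOX2-positive cells, 86.5% against 54.4%, and these were the cells with more metallothionein in both libraries. Cells with SOX2 alone averaged 2.59 UMIs in WT and 0.514 in GATA3 KO (5.04-fold). Cells with TFAP2A alone averaged 0.930 and 0.0759 (12.2-fold, log2 -3.61, -4.32 to -2.96), the latter from 24 UMIs. Cells with none of the 3 markers averaged 0.885 and 0.0758 (11.7-fold, log2 -3.55, -4.40 to -2.80), the latter from 15 UMIs. The part of free RNA in such low counts was not tested. For MIXL1 alone the means were 0.583 and 0.238, the latter from 5 UMIs in 21 cells (log2 -1.29, -2.93 to -0.05). Within SOX2-positive cells every member was lower in GATA3 KO, from MT1H at 0.243 and 0.0286 UMIs (8.48-fold) to MT1E at 0.0711 and 0.0323 (2.20-fold).

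No group of cells is known to lack metallothioneins. The lowest share of cells with a UMI was therefore taken as an upper limit for cells reached by free RNA. In GATA3 KO, 6.96% (4.41 to 10.4) of the 316 cells with TFAP2A alone held a metallothionein UMI, at a median depth of 47201.5 UMIs before thinning. In WT the lowest share was 36.0% (27.2 to 45.5), in the 114 cells with TFAP2A alone, at 44750.5 UMIs. A single UMI in a cell is read as no more than that. The high cells had sums of 10 to 138 in WT and 10 to 43 in GATA3 KO. A share of cells sets no limit on sums, and 2 of those 114 WT cells were high cells, with a highest sum of 16. The part of free RNA in the sums was not tested.

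The mix of members changed with the total. Composition was read in the 57 WT and 16 GATA3 KO cells with at least 50 metallothionein UMIs before thinning, which held 46.1% and 19.8% of the family. MT1G made up 28.6% of their pooled metallothionein UMIs in WT and 27.9% in GATA3 KO, against 8.13% and 11.9% in all other cells. MT1H rose likewise from 5.09% to 14.4% and from 4.33% to 10.5%, and MT1E from 2.12% to 5.38% and from 5.47% to 11.0%. MT1X fell from 65.7% to 41.4% and from 60.6% to 31.6%. MT2A fell in WT, from 15.3% to 7.97%, but not in GATA3 KO, at 12.1% and 15.5%. Each member's own counts helped to choose the cells with at least 50 UMIs, and the part of that choice in these shares was not tested.

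Single cells differed widely around these shares. MT1X ranged from 15.1% to 87.2% of a cell's metallothionein UMIs in WT and from 0% to 64.3% in GATA3 KO, and it was the leading member in 44 of 57 and 9 of 16 cells. MT1G led in 9 WT and 4 GATA3 KO cells and MT2A in 2 and 3. The GATA3 KO cell with no MT1X had 71 metallothionein UMIs, of which MT2A gave 64.8%, MT1H 15 UMIs and MT1G 5. A cell of 73 UMIs in the same library had neither MT1G nor MT1H. With 50 UMIs per cell, counting error alone is several percentage points.

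**Figure D4:**
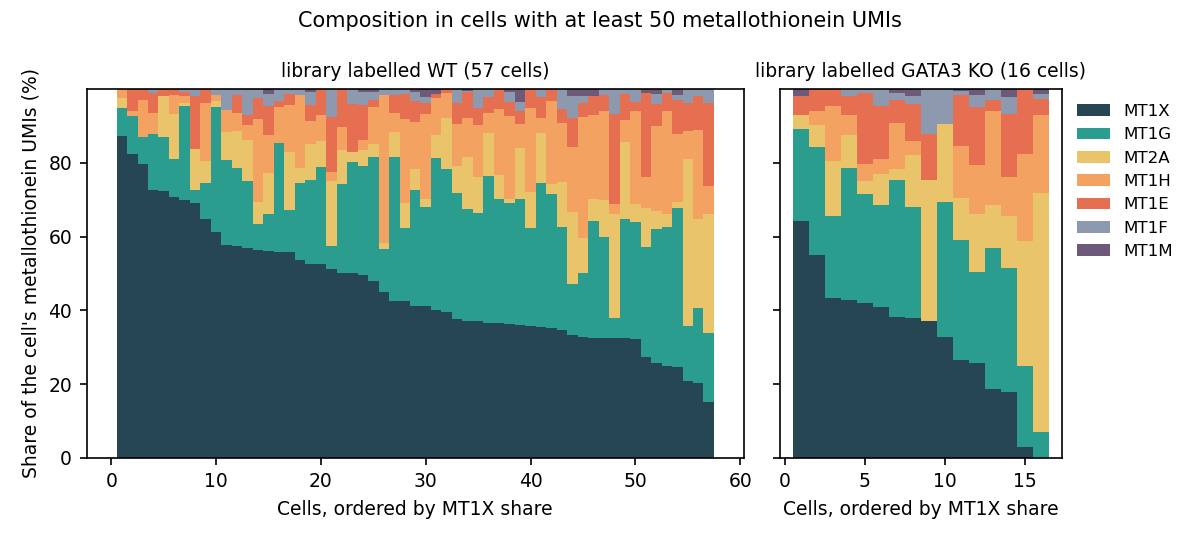
Share of each member (%) among the metallothionein UMIs of each cell with at least 50 of them, 57 cells in WT and 16 in GATA3 KO, ordered by the MT1X share. MT1X spans 15.1% to 87.2% in WT and 0% to 64.3% in GATA3 KO, and MT1G has a median share of 26.5% and 29.4%.

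The zinc exporter SLC30A1 was higher in cells with more metallothionein. It stood at 16.2 CPM (11.9 to 21.6) in the high cells of WT against 6.88 CPM (6.37 to 7.43) in the others, and at 14.7 CPM (8.42 to 23.9) against 4.90 CPM (4.58 to 5.24) in GATA3 KO. The log2 ratios were 1.13 (0.70 to 1.53) and 1.41 (0.67 to 2.08). At a minimum of 5 CPM, 0.867% of 9807 other genes in WT and 1.04% of 10080 in GATA3 KO were higher by a log2 ratio of 1 or more, and 1.97% and 2.67% were lower. Only 47 and 33 of those genes had a higher ratio than SLC30A1. The values rest on 46 and 16 UMIs. In WT the ratio fell to 0.60 when high cells were set at 20 or more UMIs and was 0.81 among SOX2-positive cells alone, while in GATA3 KO these values were 1.62 and 1.35.

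The level followed the metallothionein sum in steps. In WT, SLC30A1 was at 5.87, 6.94, 8.76, 14.5 and 16.2 CPM in cells with 0, 1, 2 to 4, 5 to 9 and 10 or more metallothionein UMIs. In GATA3 KO it was at 4.31, 6.43, 9.30, 11.7 and 14.7 CPM in the same classes. Within SOX2-positive WT cells the first 3 classes did not differ beyond counting error, at 8.47, 8.29 and 9.46 CPM, and the last 2 were at 16.9 and 16.6. Within SOX2-positive GATA3 KO cells the 5 classes were at 4.51, 6.61, 9.46, 11.7 and 14.7 CPM. The share of cells with an SLC30A1 UMI went from 20.6% to 42.4% in WT and from 15.1% to 32.0% in GATA3 KO.

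The zinc importer SLC39A10 went the other way by a smaller amount. It was at 133 CPM (120 to 147) in the high cells and 159 CPM in the others of WT (log2 -0.26, -0.41 to -0.11), and at 106 (87.4 to 127) and 149 CPM in GATA3 KO (log2 -0.49, -0.76 to -0.22). From the class with no metallothionein UMI to the highest, it went from 160.2 to 132.6 CPM and from 151.6 to 105.8 CPM. MTF1 itself, at 6.35 and 5.42 CPM in WT and 7.36 and 7.30 CPM in GATA3 KO, did not differ beyond counting error. SLC30A1 and SLC39A10 were singled out from the list of zinc genes after its values had been seen, and neither was tested.

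**Figure D5:**
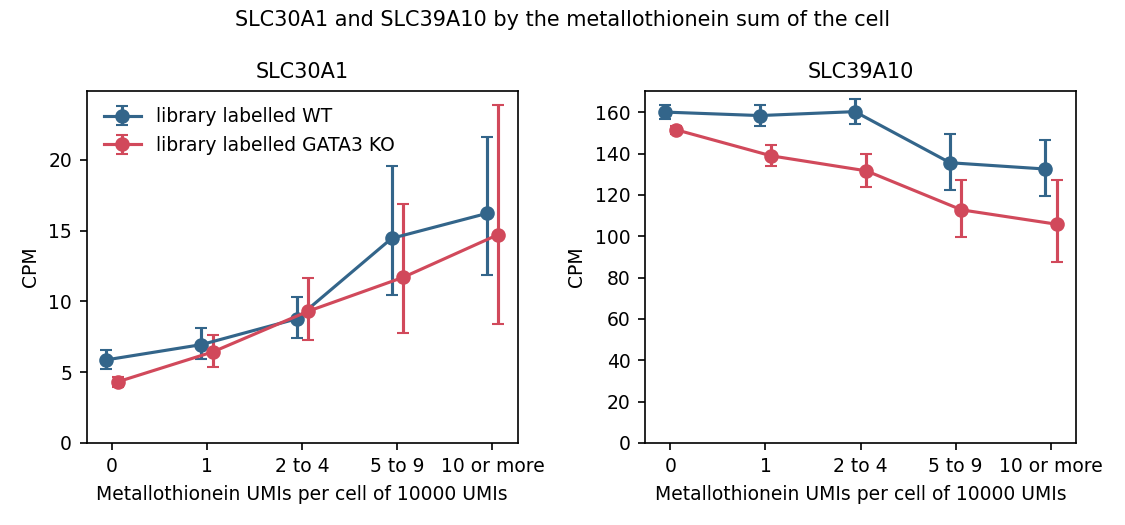
Level of SLC30A1 and SLC39A10 (CPM, from unthinned counts) in cells grouped by their metallothionein UMIs per 10000, in both libraries, with exact Poisson 95% intervals that cover counting error only. SLC30A1 climbs from 5.87 to 16.2 CPM in WT and from 4.31 to 14.7 CPM in GATA3 KO, and SLC39A10 declines from 160.2 to 132.6 and from 151.6 to 105.8.

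Of the 17 zinc genes, 13 reached 5 CPM in the high or the other cells of each library. SLC30A1 was the only one higher by a log2 ratio of 1 in the high cells of either library, and the importer SLC39A8 was lower in WT, at 18.3 against 43.7 CPM, but at 12.0 and 17.8 CPM in GATA3 KO, where the interval of the log2 ratio (-1.35 to 0.19) includes no difference. Between the libraries, 13 zinc genes had at least 1 CPM and only SLC39A8 was past a log2 ratio of 1, at 42.7 CPM in WT and 17.9 CPM in GATA3 KO. SLC30A1 was at 7.18 and 4.99 CPM (log2 -0.45, -0.57 to -0.33) and MTF1 at 5.43 and 7.29 CPM (log2 0.37, 0.24 to 0.49).

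Few genes of the other lists that respond to metals or stress were past a log2 ratio of 1, and the same held for all genes. For the high cells a minimum of 20 CPM was used, and 0.585% of 5296 other genes in WT and 0.218% of 5502 in GATA3 KO were then higher by a log2 ratio of 1, and 1.57% and 0.891% lower. No gene of the copper, oxidative stress, heat shock, glucocorticoid, hypoxia or unfolded protein list was past that limit in the high cells of either library. With shares this low among all genes, a count of 0 in lists this short does not set them apart. At the minimum of 5 CPM used for the zinc genes, no gene of these lists was higher in either library and none was lower in WT, but 2 were lower in GATA3 KO. They were TSC22D3, a glucocorticoid target, at 0.920 against 5.67 CPM (1 UMI in the high cells, log2 -1.80, -2.71 to -0.12), and DDIT3, of the unfolded protein response, at 1.84 against 5.31 CPM (2 UMIs, log2 -1.15, -2.37 to 0.28). HMOX1, a heme oxygenase induced by oxidative stress and by heavy metals, was at 7.05 and 6.09 CPM in the high and other cells of WT and at 14.7 and 11.8 CPM in GATA3 KO, both within counting error. BNIP3, a hypoxia target, was at 105 and 61.0 CPM in WT and at 47.9 and 27.8 CPM in GATA3 KO (log2 0.77 and 0.76). Between the libraries, none of the 5 copper, 6 oxidative stress, 5 heat shock, 3 glucocorticoid and 5 unfolded protein genes of at least 1 CPM passed a log2 ratio of 1. Of all 13523 genes of that level, 2.27% were lower and 2.06% higher by as much, so this count does not set the lists apart either. The medians of these lists were -0.19, 0.10, 0.03, -0.35 and 0.28, against -0.08 for the zinc genes, -0.26 for the 3 hypoxia genes and 0.07 for all genes. In the hypoxia list ADM was higher in GATA3 KO, at 17.5 and 82.7 CPM, and BNIP3 lower, at 62.3 and 27.9 CPM.

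Of the metallothioneins outside the 7 members, which took no part in choosing the high cells, MT1HL1 had 6 UMIs in the 59 high cells of WT and 1 in the 2114 others. MT1A had 2 and 2, MT1B and MT3 had 1 and 2 each, and MT4 had none. In GATA3 KO these genes had no UMI in the 25 high cells, where their sum in the others was 0.0579 CPM, so nothing could be seen there. Whether reads of the members were placed on these similar genes was not tested.

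Beside the 6 members of at least 20 CPM, whose own counts chose the high cells, TTYH1 was the only gene higher by a log2 ratio of 1 in the high cells of both libraries. It was at 31.0 against 11.7 CPM in WT and 53.4 against 24.4 CPM in GATA3 KO. Among SOX2-positive cells alone its log2 ratio was 0.87 in WT and 0.93 in GATA3 KO, under that limit. In each library apart, 0.585% of the other genes in WT and 0.218% in GATA3 KO were higher by as much, and 1.57% and 0.891% lower. Another 12 genes were lower in both, among them NTS (neurotensin), at 379 against 2035 CPM in WT and 96.6 against 563 CPM in GATA3 KO. HAPLN1, a matrix link protein also among them, was at 1.76 against 22.0 and 1.84 against 22.1 CPM, on 5 and 2 UMIs in the high cells. MSX2 and BAMBI, both targets of BMP signalling, were among the 12. MSX2 was at 14.1 and 40.5 CPM in WT and at 2.76 and 38.3 CPM in GATA3 KO, where the high cells held 3 UMIs of it. BAMBI was at 53.6 and 113 CPM in WT and at 13.8 and 89.6 CPM in GATA3 KO. The part of the marker mix of the high cells in the values of these genes was not tested.

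The pluripotency list did not follow SOX2 as a whole. Its 6 genes summed to 2684 CPM in the high cells and 2232 CPM in the others of WT, and to 3122 and 3045 CPM in GATA3 KO. NANOG was lower in the high cells of both libraries, at 61.7 and 76.01 CPM in WT (log2 -0.30, -0.52 to -0.08) and 40.5 and 55.7 CPM in GATA3 KO (log2 -0.45, -0.90 to -0.03). In WT, LIN28A (558 against 387 CPM), DPPA4 (340 against 269 CPM) and TDGF1 (553 against 438 CPM) were higher in the high cells, beyond counting error. In GATA3 KO, DPPA4 and TDGF1 did not differ beyond counting error. The 5 primitive streak genes summed to 26.8 CPM in the high cells of WT and 261.2 CPM in the others, and to 0.92 and 12.5 CPM in GATA3 KO. The 6 amnion or trophectoderm genes summed to 23.3 and 48.4 CPM in WT and to 11.0 and 73.9 CPM in GATA3 KO. SOX2 was at 328 against 144 CPM in WT and 531 against 388 CPM in GATA3 KO, whereas POU5F1, another pluripotency gene, was at 844 against 917 and at 1387 against 1478. Endoderm genes summed to 1.06 and 19.4 CPM and to 0 and 0.318 CPM, and germ cell genes to 13.4 and 15.9 and to 1.84 and 12.7 CPM. Early neural genes summed to 100.1 and 35.5 CPM in WT and 145 and 89.5 CPM in GATA3 KO, of which IRX2 gave most, while PAX6 and SOX1 had at most 27 UMIs in either library. Genes of S phase (509 and 537, and 561 and 615 CPM) and of G2/M (1012 and 845, and 1203 and 1173 CPM) held no gene past a log2 ratio of 1. Liver, kidney or gut genes stayed under 5 CPM in sum, and of the 4 fibroblast genes only COL1A1 exceeded 1 CPM. COL1A1 was higher in the high cells, at 33.5 and 14.5 CPM in WT (log2 1.16, 0.85 to 1.45) and 46.02 and 29.4 CPM in GATA3 KO (log2 0.63, 0.21 to 1.02). Between the libraries the primitive streak genes went from 252.8 CPM in WT to 12.3 CPM in GATA3 KO and the amnion or trophectoderm genes from 49.0 to 74.0 CPM. The part of these differences in the metallothionein values was not tested.

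Over all cells the genes most like the family were few and the likeness was weak. Among 6706 genes found in at least 10% of thinned cells of both libraries, SOX2 had the highest Spearman rho with the metallothionein sum in the lower of its 2 libraries, at 0.22 over WT cells and 0.14 over GATA3 KO cells. SFRP1, a secreted Wnt inhibitor, followed at 0.25 and 0.13, then DNMT3B, UGP2, USP9X, CLU, MFGE8 and CNMD. At the other end were NTS (-0.24 and -0.15), PCAT14, ID3, a BMP target (-0.13 and -0.14), and ANP32B. SOX2 and SFRP1 were themselves higher in GATA3 KO, at 149.5 and 388.6 CPM and at 134.4 and 520.1 CPM, opposite to the metallothioneins between the libraries.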

How the data were processed

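Human embryonic stem cells of the H1 line after BMP4 were profiled in 1 library labelled WT and 1 labelled GATA3 KO, grouped by their labels alone. The deposited files hold raw UMI counts per gene and cell barcode, which the authors made from 10x Genomics 3′ libraries with Cell Ranger 3.0.2 (named in the file headers) on GRCh38, and cells over the limits below were still present. Counts that near-identical genes share can be lost or misplaced in such tables.

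The members and gene lists were chosen with earlier results of these data known. From the counts, cells with over 7500 genes or over 25% mitochondrial counts were removed, the limits in the methods of the study. Counts were summed per library as CPM, and cells were thinned to 10000 UMIs (seed 42), which left out 346 and 412 shallower cells. No doublet caller was run, and the deepest 5% of cells were left out as an alternative. Ratios are log2 of CPM + 1, which understates changes of genes with low counts. Intervals are exact Poisson for levels, Clopper-Pearson for shares and exact binomial for ratios, and a count of 0 cells was read as up to 3 cells of the total. With 1 library per group there are no replicates, so no test, p-value or standard error was computed. "Positive" means at least 1 UMI in a thinned cell.

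Named genes were the 7 members, the genes of the lists of other metallothioneins, zinc, copper, oxidative stress, heat shock, glucocorticoid, hypoxia, unfolded protein and neighbouring genes, those of the marker lists, and the 8 highest and 4 lowest genes by rank correlation with the family. TTYH1 and the genes lower in the high cells of both libraries were named after their values were seen. Other settings were another pseudocount, TMM scaling (edgeR 4.0.16 in R 4.3.3), other limits on cells, other thinning depths and other marker calls. Python 3.11.15 with numpy 2.4.6, scipy 1.17.1 and pandas 2.3.3 was used, and the measures were tested on simulated counts.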

Additional observations from a re-analysis of the deposited data

How the results depend on the processing

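With 1 library per group, a value was taken as moved where it left the counting interval of the value reported. For correlations the limit was a difference of more than 0.05. For the share of genes past a log2 ratio of 1 it was a fixed multiple of the value. No result changed direction. For shares and percentages, which cannot fall below 0, this was fixed in advance. Of 184 alternative values, 115 stayed within these limits. The ratio of GATA3 KO over WT stayed below 0 for the sum and for each of the 7 members under all 12 alternatives. For the sum it was -2.02 over all deposited cells, -2.01 with no limit on detected genes, -1.81 with 5 CPM added and, in an alternative chosen after seeing the data, -1.86 without the 1% of cells with the highest metallothionein level. Of the 7 members, 4 were lower by 1 or more under 9 of the 12 alternatives, 5 over all deposited cells and with no limit on detected genes, and 6 with 0.1 CPM added. MT1M, which has few counts, ranged from -2.01 to -0.26, and MT1E from -1.08 to -0.48.

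The share held by the highest 10% of cells was 71.1% in WT and 90.7% in GATA3 KO at 5000 UMIs, and 75.5% in GATA3 KO both at 20000 UMIs and without thinning (75.5%). The highest 5%, a different quantity that is counted among the alternatives, held 56.0% and 63.3%. The correlation reported for WT was 0.54 as Pearson r and 0.21 over all 21 pairs. It could not be computed at 5000 UMIs in WT, nor in GATA3 KO with the limit on low means other than without thinning, where it was 0.31 over 3 pairs.

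For SOX2, the ratio in WT was 1.21 at 5000 UMIs, 0.76 without thinning, 1.44 over all deposited cells and 1.04 without the highest 1%. In GATA3 KO it was 1.47, 1.05, 1.77 and 1.99 under the same alternatives, 1.37 with 2 UMIs required and 2.02 for cells with SOX2 only. For MIXL1 it was -1.39 at 5000 UMIs, -1.45 without the deepest 5% and -1.08 without the highest 1% in WT, and -0.59 at 20000 UMIs in GATA3 KO. For TFAP2A it was -0.21 at 5000 UMIs, -1.15 at 20000 UMIs and -1.13 with 2 UMIs required in WT. In GATA3 KO the same 3 gave -1.23, -1.33 and -2.73, with -1.09 without thinning, -1.22 without the deepest 5% and -2.56 for cells with TFAP2A only. The cause of these shifts was not tested.

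Alternatives chosen after seeing the data also moved the high cells. With a limit of 20 UMIs, 96.4% of high cells in WT had SOX2, SLC30A1 had a ratio of 0.60 in WT and SLC39A10 one of -0.95 in GATA3 KO. Over all genes with a count, 1.23% and 1.12% of genes were past a log2 ratio of 1 downward and upward, since low genes then enter the total. The depth limits the low members most, as 1 UMI in a thinned cell equals 100 CPM.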

Other observations

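Cells outside the limits also held metallothioneins. The 1012 WT cells with over 7500 detected genes stood at 150.3 CPM for the sum of the 7 members and the 1265 such cells of GATA3 KO at 29.9 CPM, against 162 and 42.7 CPM in the kept cells. The 271 and 506 cells over the mitochondrial limit stood at 63.7 CPM (54.8 to 73.6) and 15.2 CPM (12.0 to 18.9). In both libraries MT1X was the leading member in each of these classes. Kept cells under 10000 UMIs, which thinning left out, were at 169.6 CPM (149 to 192) in WT and 44.7 CPM in GATA3 KO. One of these shallow WT cells held 54 metallothionein UMIs among 4163, or 1.30% of its transcripts, with 0.192% mitochondrial counts, 1 POU5F1 UMI and no SOX2 UMI. All 7 members were present together in 14 of the 57 WT cells and 5 of the 16 GATA3 KO cells with at least 50 metallothionein UMIs.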
